A study of Mus musculus with 29 samples.

Results

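The axon guidance genes of the semaphorin, plexin, ephrin and Eph receptor families were followed in mouse brain tissue with and without a photothrombotic stroke. Members were all genes whose Ensembl ID maps to a symbol made of Sema, Plxn, Eph or Efn and the class number and letter of the classical members, with no use of their measured values. This gave 51 of the 25746 genes in the count tables: 20 semaphorins, 9 plexins, 14 Eph receptors and 8 ephrins. All 51 passed the filter on low counts, and 48 were at 1 CPM (the count scaled to library size after TMM normalization) or more in all 29 samples.

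The study compared stroke pathology in immune competent and immunodeficient mice, 21 days after a photothrombotic lesion of the right sensorimotor cortex, in which light activates a circulating dye and clots the cortical vessels. Polyadenylated RNA was sequenced from 4 non-stroked wildtype (WT, C57BL/6 background), 3 non-stroked Rag2-/- and 4 non-stroked NSG brains. It was also sequenced from 4 stroked WT, 3 stroked Rag2-/- and 3 stroked NSG mice, and from stroked WT mice given tacrolimus, a calcineurin inhibitor that blocks T cell activation, from the day of the lesion (WT-Tacr acute, 3 mice) or only from a week later (WT-Tacr delayed, 5 mice). Mice were 3 months old and of both sexes. Rag2-/- mice lack the recombinase needed for T and B cell receptors. NSG mice are of the NOD background and carry the scid mutation of Prkdc and a null allele of the common cytokine receptor chain Il2rg, so they lack T, B and NK cells, and they differ from WT in strain as well as in immunity. Both defects are germline, so they cover development as well as the lesion. The study describes the comparison tissue as the contralesional site in its methods and as non-stroked mice in its results, and it is called non-stroked here. Each library is taken as 1 mouse, as labelled.

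Several libraries stood apart, and their values are repeated beside the results they touch. Total counts ran from 17789044 to 43403413 per library. Labels put 20 libraries in a cohort called Imm2, with all the non-stroked mice, and 9 in a cohort called TF, which held all 5 WT-Tacr delayed mice, 2 of the 3 WT-Tacr acute and 2 of the 4 stroked WT mice. Ddx3y, a Y-linked gene, was at 0 in all 9 TF libraries and between 49.2 and 53.1 CPM in all non-stroked WT and NSG libraries, so cohort and sex cannot be told apart between the TF mice and those controls. In Rag2-/- mice Ddx3y was at 0.0566, 0 and 38.9 CPM without stroke and at 0, 41.5 and 48.9 CPM with stroke. Sex was thus uneven in that strain and in its comparisons with WT and NSG mice. The summed level of 10 striatal markers was 476.5 to 933.2 CPM in non-stroked WT and 1184 to 2562 CPM in WT-Tacr delayed mice. Among the stroked libraries, WT-Tacr acute mice 5m_1 and 1_5 had the summed level of 12 microglia and macrophage markers at 462.8 and 434.0 CPM, against 320.5 to 379.9 CPM in non-stroked WT and 858.4 to 1112 CPM in stroked WT. Gfap, the filament protein of reactive astrocytes, was at 266.9 and 188.8 CPM in these mice and at 765.1 CPM or more in every stroked WT mouse. Rag2 itself was at 0 in 28 of the 29 libraries, so it could not serve to check the knockout. Il2rg was at 0.784 to 0.979 CPM in stroked NSG and 2.11 to 3.46 CPM in stroked WT mice, but at 0.681 to 1.05 and 0.716 to 0.871 CPM in the non-stroked mice of the same strains, so it did not separate those.

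Semaphorins are secreted, membrane-spanning or lipid-anchored proteins that steer growing axons, most often by repulsion. Plexins are their signalling receptors, and the secreted class 3 semaphorins also need a neuropilin to bind most plexins. Ephrins are membrane-bound ligands of the Eph receptor tyrosine kinases, the A class held by a lipid anchor and the B class by a transmembrane segment. Both systems sort connections in the developing cortex, and in the adult brain they act on synapses, vessels, oligodendrocytes and immune cells. They are of interest after stroke because several of their ligands make injured adult brain tissue hard for axons to cross.

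Promoter sequences of 3 genes that the results below return to are shown first. Efna5 and Sema3a were called lower after stroke in WT, Rag2-/- and NSG mice, and Plxnb2 was called higher in WT and Rag2-/- mice. Each is the 250 bases before a RefSeq transcription start on GRCm38.p6, written in the direction of transcription, with each GC box (GGGCGG or its reverse complement CCGCCC, the letters bound by the Sp family of factors) in capitals. Efna5 (ENSMUSG00000048915) lies at chr17:62604184-62881317, Sema3a (ENSMUSG00000028883) at chr5:13125414-13602565 and Plxnb2 (ENSMUSG00000036606) at chr15:89155549-89180788 in GENCODE M21. The Efna5 stretch is at chr17:62881318-62881567 on the minus strand, the Sema3a stretch at chr5:13396534-13396783 on the plus strand, where it lies inside the gene before an internal start, and the Plxnb2 stretch at chr15:89180789-89181038 on the minus strand.
Efna5: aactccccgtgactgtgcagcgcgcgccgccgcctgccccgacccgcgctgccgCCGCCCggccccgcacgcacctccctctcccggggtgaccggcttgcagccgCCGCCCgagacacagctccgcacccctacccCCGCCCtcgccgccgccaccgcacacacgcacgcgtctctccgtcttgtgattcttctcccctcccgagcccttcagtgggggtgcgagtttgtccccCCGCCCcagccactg
Sema3a: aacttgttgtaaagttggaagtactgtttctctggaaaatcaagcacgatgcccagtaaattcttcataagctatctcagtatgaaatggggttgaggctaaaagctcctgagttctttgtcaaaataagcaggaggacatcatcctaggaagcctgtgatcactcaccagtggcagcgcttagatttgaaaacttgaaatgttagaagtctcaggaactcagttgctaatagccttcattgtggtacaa
Plxnb2: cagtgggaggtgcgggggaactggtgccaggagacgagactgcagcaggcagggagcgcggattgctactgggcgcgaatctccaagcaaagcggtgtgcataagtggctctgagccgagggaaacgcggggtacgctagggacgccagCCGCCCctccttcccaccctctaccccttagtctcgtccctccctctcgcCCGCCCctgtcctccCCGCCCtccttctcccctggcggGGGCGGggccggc
Efna5 and Plxnb2 each held 4 GC boxes and Sema3a held 0. GC content was 74.8% before Efna5, 69.2% before Plxnb2 and 40.8% before Sema3a. Another listed Plxnb2 promoter, not shown, held 3 GC boxes and had a GC content of 63.6%. RefSeq listed 59 promoters for 45 of the 51 members, and 44 of the 59 (74.6%) had a GC box on either strand, against 32.7% of 32851 promoters of the same length and 42.6% of the 21263 promoters of coding genes. Their median GC content was 64.0%, against 52.4% over all promoters. The E-box CACGTG was in 5.08% of member promoters and 6.02% of all promoters, the cAMP response element TGACGTCA in 1.69% and 1.55%, the AP-1 site TGANTCA in 5.08% and 6.75%, the STAT site TTCNNNGAA in 3.39% and 7.02% and the CCAAT box in 32.2% and 33.8%. These are matches of letters and not measured binding.

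**Figure D1:**
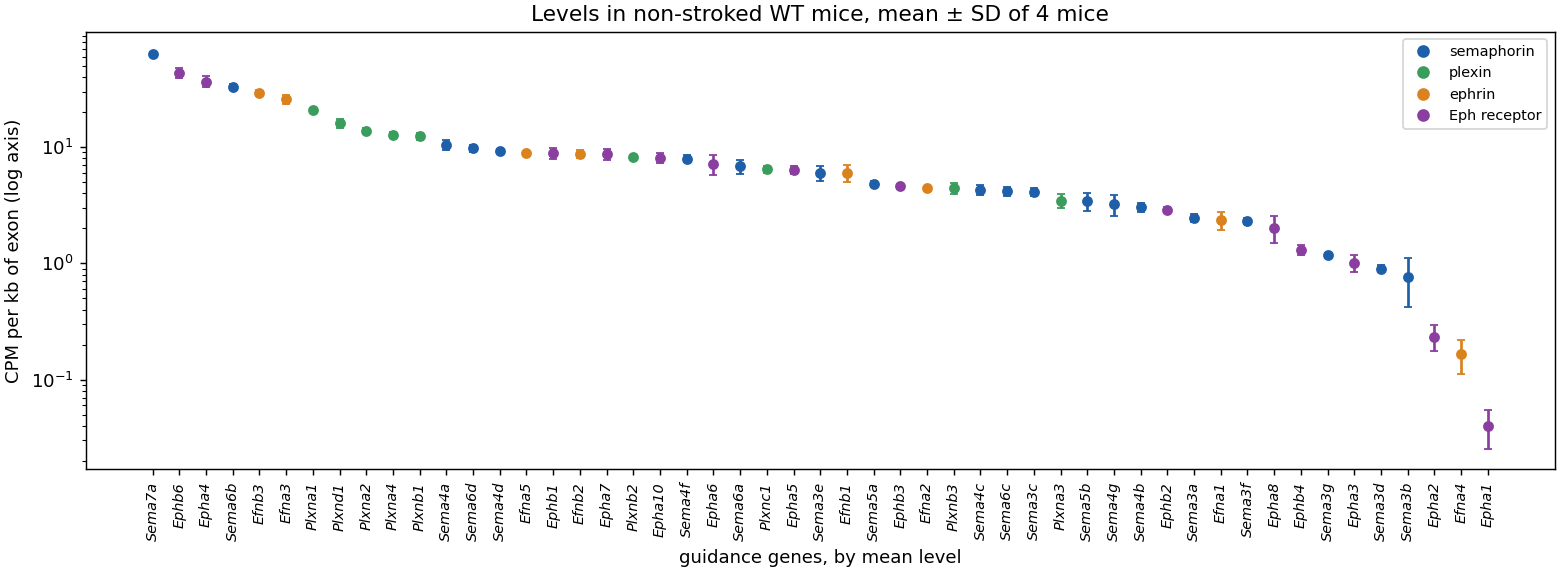
Level of each guidance gene in non-stroked WT mice, as CPM per kb of exon on a log axis, ordered by mean; points are means and bars the SD of 4 mice. Sema7a was the highest, at 63.4 CPM per kb, and Epha1 the lowest, at 0.0398 CPM per kb.

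In the non-stroked WT brain the members spanned over 3 orders of magnitude in level per kb of exon. Sema7a, a lipid-anchored semaphorin that also binds integrins, was the highest at 63.4 ± 2.28 CPM per kb (SD, n = 4), followed by Ephb6, an Eph receptor without kinase activity, at 43.8 ± 4.48, and Epha4, a receptor of both ephrin classes, at 36.7 ± 3.95. The highest plexin was Plxna1 at 21.0 ± 0.602 CPM per kb and the highest ephrin was Efnb3, the midline ephrin, at 29.4 ± 1.39. Of the 9 plexins 5 were neighbours in the order, from Plxna1 through Plxnd1, Plxna2 and Plxna4 to Plxnb1 at 12.4 ± 0.816 CPM per kb. Most neighbours in this order were not apart: the ranges of the 4 mice overlapped in 39 of the 50 neighbouring pairs. At the bottom were Epha2 at 0.234 ± 0.0589, Efna4 at 0.167 ± 0.0543 and Epha1 at 0.0398 ± 0.0147 CPM per kb. Epha1 and Efna4 had a mean under 1 CPM, and Epha1 shares its locus with Zyx on the opposite strand, as Ephb4 does with Zan. Whether counting used strand is not given in the sources used here, so reads of these overlaps could not be assigned with certainty.

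**Figure D2:**
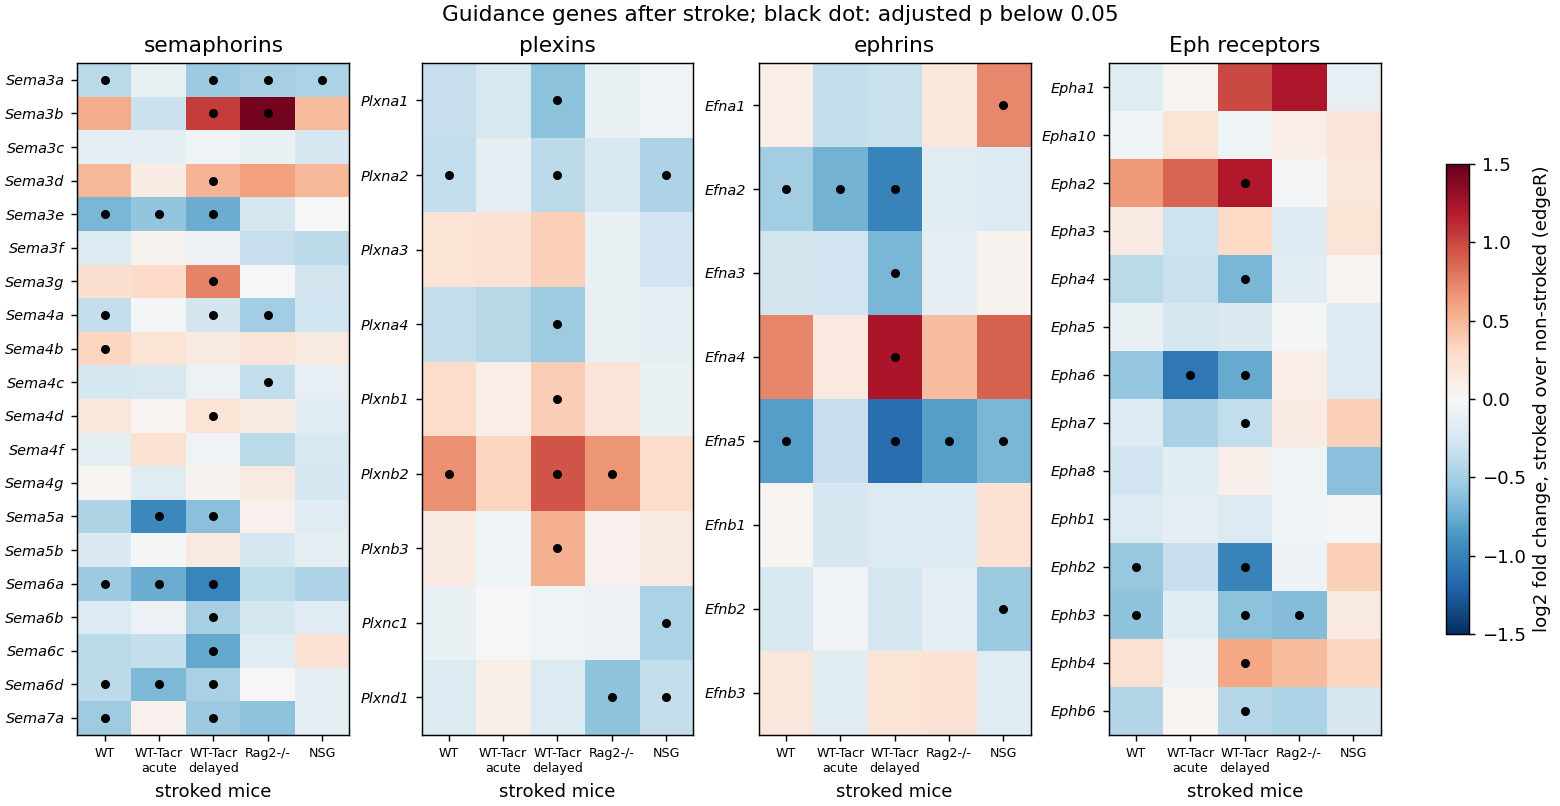
Log2 fold change of the 51 guidance genes for 5 groups of stroked mice, each against its own strain without stroke; colour runs from -1.5 (blue) to 1.5 (red) and a black dot marks an adjusted p below 0.05. The 3 WT columns share the same 4 non-stroked mice. Efna5 and Sema3a are blue with a dot in WT, Rag2-/-, NSG and WT-Tacr delayed mice.

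After stroke in WT mice more guidance genes fell than rose. In all, 11 members fell and 2 rose (edgeR quasi-likelihood test, Benjamini-Hochberg adjusted p below 0.05 over 17031 genes, which defines a called gene here), so 13 of 51 were called (25.5%), against 26.9% of all genes tested. By direction, 11 members (21.6%) fell against 11.6% of all genes, and 2 (3.92%) rose against 15.2%. The median log2 fold change was -0.21 over the members and -0.00 over all genes. No member changed by more than 1 on the log2 scale, which 7.3% of all genes did. In these bulk samples fewer cells of a type and less RNA per cell cannot be told apart. In the same comparison 6 of 12 neuronal markers fell, and their summed level was 14230 to 15920 CPM in non-stroked and 10010 to 14800 CPM in stroked WT mice. The stroked WT mice were at 12990 and 14800 CPM in cohort Imm2 and at 10150 and 10010 CPM in cohort TF. Among other markers 11 of 12 of microglia and macrophages and 7 of the 9 of fibroblasts tested rose. Their part in the guidance gene results was not tested.

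Among the ligands, Efna5, an EphA ligand known for repelling axons in cortical and retinal maps, had the smallest p. It was at 35.1, 37.1, 35.3 and 36.1 CPM in the non-stroked WT mice and at 24.5, 21.0, 17.3 and 17.6 CPM in the stroked ones, and the groups did not overlap. Its log2 fold change was -0.83 ± 0.172 (SE, adjusted p = 0.00107), a level 43.9% lower. Sema3e, a class 3 semaphorin that binds Plxnd1 without a neuropilin, went from 66.5, 48.6, 56.7 and 51.3 CPM to 30.6, 33.2, 38.4 and 36.3 CPM. Every stroked mouse was below every non-stroked one, with a log2 fold change of -0.69 ± 0.142 (adjusted p = 0.00111). Within cohort Imm2 alone, both genes were still called, Efna5 at -0.65 (adjusted p = 0.0223) and Sema3e at -0.80 (adjusted p = 0.0142).

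Sema3a, the secreted repellent that acts through neuropilin 1 and plexin A receptors, was at 38.3, 32.4, 32.2 and 33.5 CPM in non-stroked and 24.6, 25.4, 24.5 and 27.9 CPM in stroked WT mice. The groups did not overlap, and the log2 fold change was -0.41 ± 0.117 (adjusted p = 0.0116). Without non-stroked mouse 1, the highest of its group, Sema3a was at -0.35 (adjusted p = 0.0505), and in cohort Imm2 alone at -0.44 (adjusted p = 0.0765). Sema7a (-0.53), Sema4a (-0.36) and Sema6d (-0.39), a ligand of plexin A1, also fell. In cohort Imm2 alone none of them was called (adjusted p = 0.0892, 0.222 and 0.403, in that order). With cohort as a covariate Sema4a and Sema6d were not called either (adjusted p = 0.0949 and 0.161). Sema6d averaged 85.6 CPM in the stroked mice of cohort Imm2 and 71.8 CPM in those of TF, which did not overlap. Sema4b rose by 0.32 and was the only ligand called higher, with groups that overlapped. Sema6a (-0.54) and Efna2 (-0.52) were called as well, but both split by cohort as described below.

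Plxnb2, a receptor of class 4 semaphorins found on neural progenitors and on macrophages and microglia, was the only receptor that rose. It was at 61.4, 60.2, 66.5 and 64.2 CPM in non-stroked and at 94.8, 85.7, 104.8 and 120.8 CPM in stroked WT mice, with no overlap (1.61-fold, log2 fold change 0.69 ± 0.144, adjusted p = 0.00125). In cohort Imm2 alone it was at 0.52 (adjusted p = 0.055). The receptors that fell were Ephb3, Ephb2 and Plxna2. Ephb3, which with Ephb2 takes part in the formation of dendritic spines, was at 29, 30.8, 32.5 and 30.6 CPM before and 23.6, 18.9, 20.2 and 18.6 CPM after stroke (-0.60 ± 0.162, adjusted p = 0.00893). Ephb2 went from 35.1, 34.1, 37.8 and 39.0 CPM to 29.5, 27.1, 23.2 and 18.4 CPM (-0.57 ± 0.198, adjusted p = 0.0344). Plxna2, a receptor of class 3 and class 6 semaphorins, went from 245.0, 235.7, 223.3 and 251.9 CPM to 184.0, 186.1, 189.7 and 180.3 CPM (-0.37 ± 0.126, adjusted p = 0.032). For each of the 3 the groups did not overlap, and the 4 stroked mice lay closest together for Plxna2. Ephb2 averaged 28.3 CPM in the stroked mice of cohort Imm2 and 20.8 CPM in those of cohort TF, which did not overlap, and it was at -0.35 with cohort as a covariate (adjusted p = 0.285) and at -0.36 in cohort Imm2 alone (adjusted p = 0.381). Plxna2 was not called with cohort (-0.31, adjusted p = 0.164) or Ddx3y (-0.30, adjusted p = 0.137) as a covariate, in cohort Imm2 alone (-0.36, adjusted p = 0.206), or without any 1 of 5 mice, non-stroked 1, 3 or 5 or stroked 5_2 or 5_3 (-0.34 to -0.38).

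The number of called members in WT mice moved with cohort and with single mice. It was 8 with cohort as a covariate and 4 in cohort Imm2 alone (Sema4c, Sema3e and Efna5 lower, Sema4b higher). It was 7 without non-stroked mouse 1, 8 without stroked mouse 5_2 and 7 without stroked mouse 5_3, and both of these stroked mice are of cohort TF. The share of all genes called in each of these settings is not given here. A change in the members and fewer calls over all genes thus cannot be told apart.

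In Rag2-/- and NSG mice 8 and 7 members were called, of which 5 and 3 were also called in the same direction in WT mice. The share of all genes called in WT mice as well as in either strain is not given here. This overlap is thus not read as particular to the members. In Rag2-/- mice 6 members fell and 2 rose, which is 15.7% called against 8.23% of all genes. By direction the shares were 11.8% lower against 1.53%, and 3.92% higher against 6.71%. In NSG mice 6 fell and 1 rose, 13.7% called against 21.9% of all genes, with 11.8% lower against 8.89% and 1.96% higher against 13.0%. Past a log2 change of 1 were 1 member in Rag2-/- mice (4.33% of all genes) and 0 in NSG mice (5.48%). Astrocyte markers rose in both strains, 6 of 10 in each, as did microglia and macrophage markers, with 9 of 12 higher in the former and 11 of 12 in the latter. Of the 12 neuronal markers 0 and 2 were called lower. Their summed level was 14220 to 14980 CPM without and 11520 to 13140 CPM with stroke in Rag2-/- mice. In NSG mice it was 12690 to 15280 and 11340 to 12800 CPM.

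The ligands Efna5 and Sema3a fell in all 3 strains. In Rag2-/- mice Efna5 was at 34.2, 38.8 and 34.5 CPM without and 16.2, 20 and 24.5 CPM with stroke (-0.83 ± 0.198, adjusted p = 0.00965), and in NSG mice at 28.6, 31.4, 18.6 and 28.0 CPM against 16.4, 15.6 and 17.8 CPM (-0.69 ± 0.188, adjusted p = 0.0115). The stroked and non-stroked mice did not overlap in either strain, although non-stroked NSG mouse 3 came close. Sema3a was at 34.7, 34.5 and 31.9 CPM against 19.1, 24.5 and 27.7 CPM in Rag2-/- mice (-0.50 ± 0.135, adjusted p = 0.0205). In NSG mice it was at 19.5, 23.5, 28.0 and 26.1 CPM against 15.4, 19.2 and 17.9 CPM (-0.47 ± 0.129, adjusted p = 0.0107). The lowest stroked values of both ligands in Rag2-/- mice came from mouse 4f_1, without which 0 members were called in that strain (Efna5 -0.69, adjusted p = 0.1). Without non-stroked Rag2-/- mouse 2 Efna5 was at -0.76 (adjusted p = 0.0542). Leaving out non-stroked Rag2-/- mouse 1, 2 or 4 left 2, 3 and 4 members called. In NSG mice 2 members were called without stroked mouse 1f_1 and 4 without non-stroked mouse 3, and Efna5 was called in both cases. Sema3a was not called without 1f_1 (-0.40, adjusted p = 0.078), and with only the NSG mice in the fit 0 members were called (Efna5 -0.69, adjusted p = 0.0663). Ddx3y was at 49.2 to 53.1 CPM in non-stroked NSG mice. It was at 0 in stroked NSG mice 1f_1 and 1f_2 and at 44.6 CPM in 1m_3, so sex was uneven in this comparison. With Ddx3y as a covariate Efna5 was at -0.52 in NSG mice (adjusted p = 0.0799). Of the members called in NSG mice without this covariate, only Sema3a was still called, beside Sema3g lower and Sema4b higher. Sex was also uneven in Rag2-/- mice, with Ddx3y at 0.0566, 0 and 38.9 CPM without and 0, 41.5 and 48.9 CPM with stroke. With Ddx3y as a covariate Efna5 and Sema3a were still called there, among 6 members lower and 3 higher.

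Plxnb2 rose in Rag2-/- mice as in WT mice, from 61.9, 63.4 and 61.4 CPM to 112.4, 99.1 and 83.0 CPM (0.66 ± 0.166, adjusted p = 0.0138). In NSG mice it was at 83.9, 65.5, 76.7 and 58.4 CPM without and 65.0, 106.1 and 88.6 CPM with stroke, the groups overlapped, and it was not called (0.28 ± 0.154, adjusted p = 0.189). Ephb3 (-0.65) and Sema4a (-0.52) fell in Rag2-/- as in WT mice, Plxna2 (-0.46) fell in NSG as in WT mice, and Plxnd1, the endothelial receptor of Sema3e, fell in Rag2-/- (-0.60) and NSG mice (-0.36). Called in Rag2-/- mice alone among the 3 strains were Sema4c (-0.37) and Sema3b, the member with the largest change there (1.43 ± 0.372, adjusted p = 0.0169). Sema4c lost this call without any 1 of the Rag2-/- mice (-0.43 to -0.25, adjusted p = 0.0527 to 0.281). In WT mice Sema4c was called lower with cohort or Ddx3y as a covariate and in cohort Imm2 alone, so its fall was not particular to Rag2-/- mice. Sema3b was at 13.4 CPM in mouse 4f_1 and at 5.18 and 5.70 CPM in the others, and its log2 fold change was 0.85 without 4f_1 (adjusted p = 0.262). It was also not called without non-stroked Rag2-/- mouse 1 (1.22, adjusted p = 0.103) or 4 (1.42, adjusted p = 0.0618). Mouse 4f_1 also had the highest choroid plexus marker sum of all libraries, 2714 CPM against 210.9 and 242.3 CPM, whose part was not tested. Called in NSG mice alone were Efna1 (0.72), an EphA ligand of activated endothelium, and, downward, Efnb2 (-0.56), an arterial ephrin, and Plxnc1 (-0.48), the plexin that binds Sema7a. The groups overlapped for Efna1, Efnb2 and Plxnd1. Without stroked NSG mouse 1f_1 Efna1 was at 0.54 (adjusted p = 0.177), Efnb2 at -0.47 (adjusted p = 0.0767), Plxnc1 at -0.29 (adjusted p = 0.189), Plxna2 at -0.25 (adjusted p = 0.167) and Plxnd1 at -0.30 (adjusted p = 0.172), so none of the 5 was called.

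**Figure D3:**
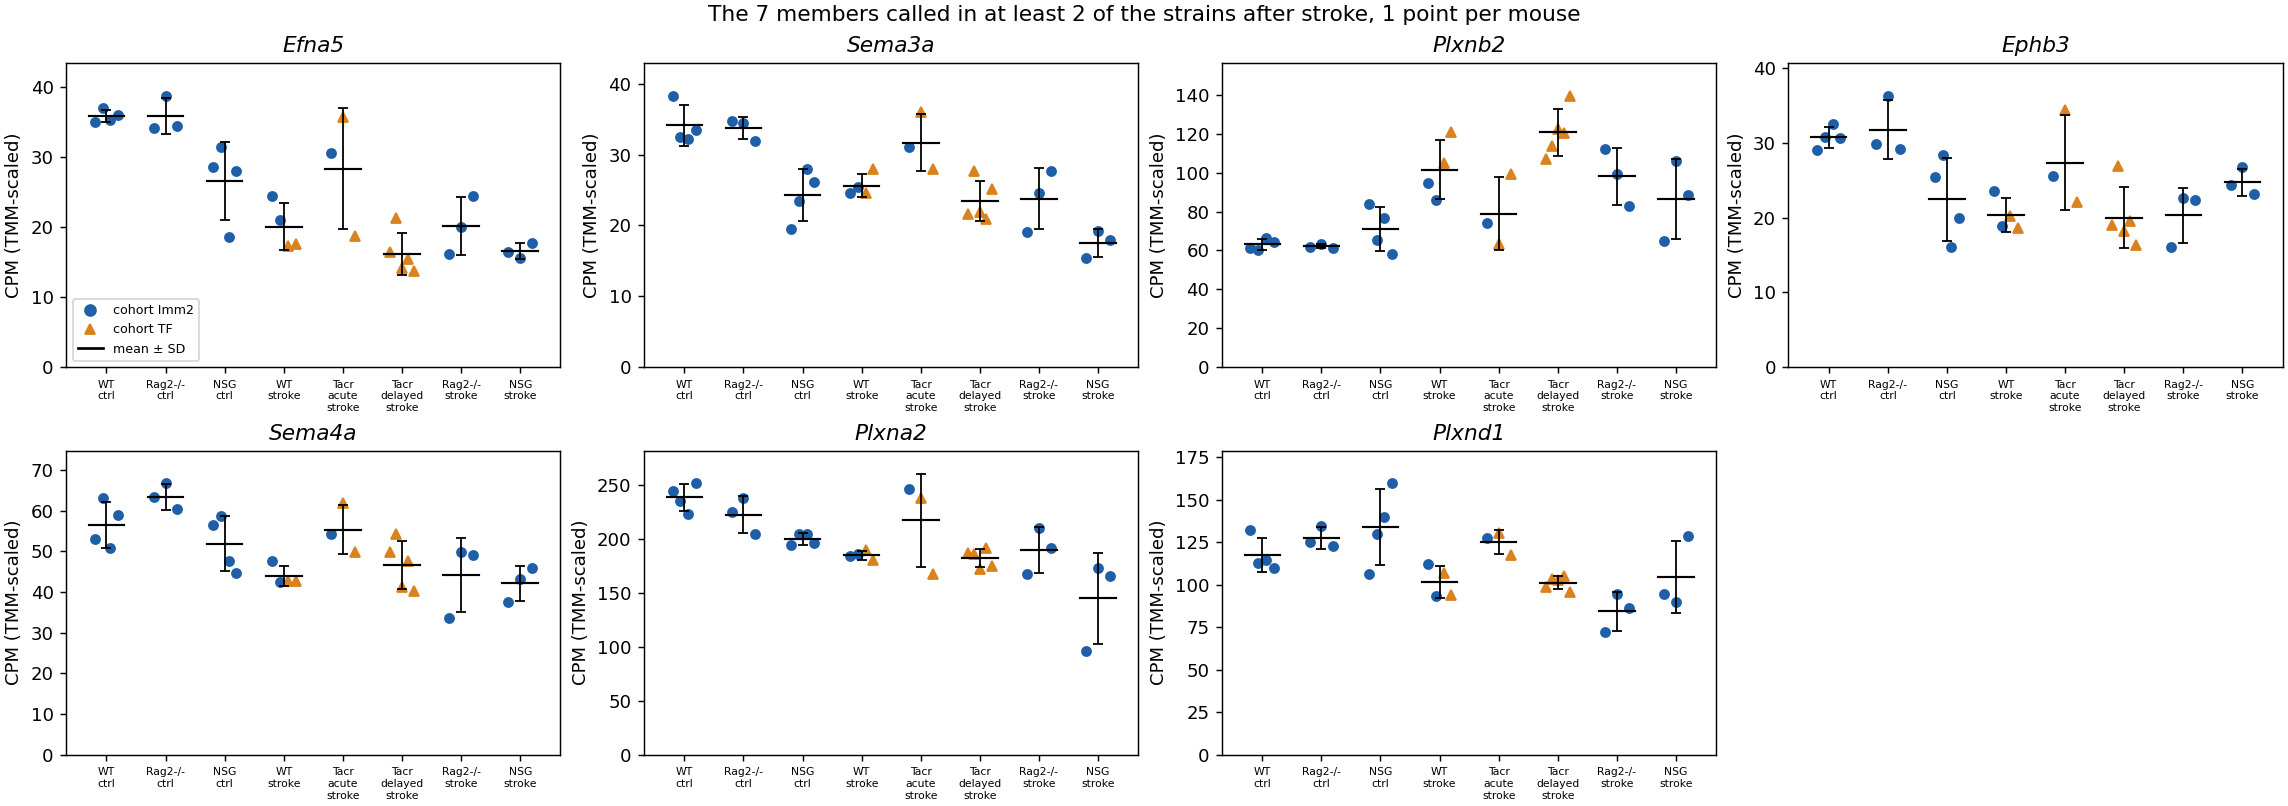
CPM per mouse for the 7 members called in at least 2 of WT, Rag2-/- and NSG mice after stroke; blue circles are cohort Imm2, orange triangles cohort TF, and black lines the mean and SD of each group, with every axis starting at 0. In WT mice all 4 stroked points lie below all non-stroked points for Efna5, Sema3a, Ephb3, Sema4a and Plxna2, and above them for Plxnb2.

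No member passed a test of the difference in response between strains. For NSG against WT 0 members were called (0.0294% of all genes), and 8 had an unadjusted p below 0.05 (15.7%, against 12.7% of all genes). The smallest p belonged to Sema3e, with a log2 fold change of -0.69 in WT and 0.00 in NSG mice, a difference of 0.69 (95% interval 0.28 to 1.10, adjusted p = 0.198). Ephb2 differed by 0.93 (0.36 to 1.5, adjusted p = 0.205) and Ephb3 by 0.74 (0.27 to 1.2, adjusted p = 0.218), both called lower after stroke in WT mice and not called in NSG mice. Without stroked NSG mouse 1m_3 the difference for Sema3e was 0.87 and passed (adjusted p = 0.0344). For Rag2-/- against WT 0 members were called (0.0% of all genes), and 2 had an unadjusted p below 0.05, Plxnd1 and Sema6d, 3.92% against 4.19% of all genes. DESeq2 called 0 members in both.

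Without a lesion, NSG brains differed from WT brains in Sema3a and Plxnb1, 2 of 51 members (3.92%) against 9.76% of all genes. Sema3a was at 38.3, 32.4, 32.2 and 33.5 CPM in WT and 19.5, 23.5, 28.0 and 26.1 CPM in NSG mice, with no overlap (-0.49 ± 0.117, adjusted p = 0.00672). Plxnb1, the receptor of Sema4d, was at 125.3, 121.9, 119.6 and 107.3 CPM in WT and 161.9, 141.1, 167.4 and 151.7 CPM in NSG mice (0.39 ± 0.115, adjusted p = 0.0287). Against Rag2-/- brains the same 2 genes were called, Sema3a at -0.47 and Plxnb1 at 0.43, 3.92% against 6.33% of all genes. Both comparisons share the 4 NSG mice. Sex was uneven in the comparison with Rag2-/- brains, where Ddx3y was at 0.0566, 0 and 38.9 CPM. No member changed by more than 1 on the log2 scale in either, where 3.36% and 2.8% of all genes did. Striatal marker sums were 484.5, 1202, 2425 and 3133 CPM in NSG mice 1 to 4. With these sums as a covariate Sema3a stayed called against WT (-0.46, adjusted p = 0.0247), and Plxnb1 was at 0.37 (adjusted p = 0.0698) against WT. Against Rag2-/- mice neither was called with that covariate, with Sema3a at -0.44 (adjusted p = 0.0537) and Plxnb1 at 0.41 (adjusted p = 0.0718). The call of Plxnb1 against WT was lost without NSG mouse 1 or 3 or WT mouse 4 or 5 (0.35 to 0.40). Against Rag2-/- mice 0 members were called without NSG mouse 1 or Rag2-/- mouse 1 or 2, and 1 without NSG mouse 3 or Rag2-/- mouse 4.

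Other members with the smallest p of their family in this comparison did not pass. Sema4g was at 26.0, 36.4, 23.4 and 26.0 CPM in WT and 40.8, 32.4, 50.1 and 30.5 CPM in NSG mice (0.46, adjusted p = 0.0736). Efnb3 was at 95.1, 92.0, 88.4 and 98.8 CPM in WT and 121.4, 109.4, 143.8 and 113.8 CPM in NSG mice (0.38, adjusted p = 0.0717). Its groups did not overlap, and those of Efnb2 did, at 63.2, 59.3, 54.1 and 64.1 CPM against 61.2, 77.3, 96.8 and 73.3 CPM (0.36, adjusted p = 0.101). Ephb3 was at 25.4, 28.3, 16.0 and 20 CPM in NSG mice (-0.45, adjusted p = 0.0769), Ephb2 at 33.0, 29.5, 20.3 and 24.3 CPM (-0.44, adjusted p = 0.17) and Plxna2 at 194.3, 205.0, 205.0 and 196.4 CPM (-0.26, adjusted p = 0.226). The last 3 lay below every WT value without passing the test. Rag2-/- and WT brains differed in 0 members, against 0.00587% of all genes, with 0 members and 2.05% of all genes at an unadjusted p below 0.05, and DESeq2 called 0.

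Tacrolimus from the day of the lesion and tacrolimus begun a week later gave 6 and 31 called members, against the same 4 non-stroked WT mice. In WT-Tacr acute mice 6 members fell and 0 rose, 11.8% called against 8.54% of all genes, with 11.8% lower against 2.36% and 0 higher against 6.18%. These were Epha6 (-1.07), Sema5a (-0.97), Sema6a (-0.74), Efna2 (-0.71), Sema6d (-0.67) and Sema3e (-0.59), of which Epha6 was the single member past a log2 change of 1 (2.58% of all genes). In WT-Tacr delayed mice 21 members fell and 10 rose, 60.8% called against 55.2% of all genes, with 41.2% lower against 27.6% and 19.6% higher against 27.6%. In these mice 6 members (11.8%) passed a log2 change of 1, against 15.5% of all genes. All delayed mice were in cohort TF and all controls in Imm2, so delayed tacrolimus with stroke and cohort cannot be told apart without the mice of other groups.

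The members lower in WT-Tacr delayed mice, from the smallest p, were Efna5 (-1.14), Efna2 (-1.0), Sema3e (-0.75), Sema6a (-0.99), Ephb2 (-1.0), Efna3 (-0.69), Sema3a (-0.54), Sema6c (-0.77), Sema6b (-0.50), Epha4 (-0.69), Sema6d (-0.49), Ephb3 (-0.61), Plxna1 (-0.62), Plxna4 (-0.53), Sema7a (-0.55), Plxna2 (-0.39), Sema5a (-0.63), Epha6 (-0.76), Ephb6 (-0.43), Sema4a (-0.27) and Epha7 (-0.37). Plexin A receptors bind class 3 and class 6 semaphorins, and 3 of the 4 were among them. The members higher were Plxnb2 (0.94), Epha2 (1.2), Sema3b (1.05), Plxnb1 (0.37), Ephb4 (0.58), Sema3g (0.74), Plxnb3 (0.53), Efna4 (1.23), Sema3d (0.51) and Sema4d (0.20). All 3 plexin B receptors rose, as did Sema4d, the ligand of plexin B1, and Ephb4, the receptor of venous endothelium. With cohort as a covariate Plxnb1 was at 0.13 (adjusted p = 0.64), Plxnb3 at 0.07 (adjusted p = 0.892), Ephb4 at 0.12 (adjusted p = 0.81) and Sema4d at 0.16 (adjusted p = 0.398). None of these 4 was called then or with Ddx3y as a covariate, while Plxnb2 was called under both (0.69 and 0.76). In the same comparison 10 of 12 neuronal markers fell, while 8 of 10 striatal, 8 of the 9 fibroblast and 11 of 12 microglia and macrophage markers rose. With cohort as a covariate 5 members were called, Sema3a, Sema3e and Efna5 lower and Sema4b and Plxnb2 higher, and Sema3g changed sign (-0.37, adjusted p = 0.247). With Ddx3y as a covariate 17 were called, and Sema3g was at -0.03 (adjusted p = 0.936).

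The WT-Tacr acute mice differed among themselves in members that were not called there. Efna5 was at 30.6 CPM in mouse 5m_1, 35.7 CPM in mouse 1_5 and 18.8 CPM in mouse 2_1. The first 2 lay beside the non-stroked WT mice (35.1 to 37.1 CPM) and the last in the range of the stroked ones. Plxnb2, at 73.9, 63.1 and 99.5 CPM in the same order, showed the reverse. The 6 called members were below the non-stroked range in all 3 mice, among them Sema6d at 68.7, 60.1 and 66.2 CPM against 93.5 to 110.6 CPM in non-stroked WT mice, Sema5a at 51.4, 45.7 and 41.3 CPM against 83.8 to 94.4 CPM, and Sema3e at 38.4, 38.7 and 34.0 CPM against 48.6 to 66.5 CPM. None was called without mouse 2_1, although Sema6d was then at -0.69 (adjusted p = 0.0755), Sema5a at -0.91 (adjusted p = 0.196) and Sema3e at -0.54 (adjusted p = 0.199), against -0.67, -0.97 and -0.59 with it. Without mouse 1_5 2 members were called, without non-stroked mouse 1 2, and with cohort as a covariate 0.

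No member passed the test between treated and untreated stroked WT mice. WT-Tacr acute against stroked WT mice gave 0 calls (0.0% of all genes), with 12 members (23.5%) and 12.7% of all genes at an unadjusted p below 0.05, and DESeq2 called 0 members. The smallest p was that of Sema7a, at 193.3, 287.0 and 175.1 CPM against 153.4, 127.6, 151.3 and 146.5 CPM (0.59, 95% interval 0.24 to 0.95, adjusted p = 0.311). Without mouse 2_1, 3 members passed, Sema7a (0.74), Efna5 (0.73) and Plxnb2 (-0.56). WT-Tacr delayed against stroked WT mice also gave 0 calls (0.0%), with 12 members (23.5%) and 20.3% of all genes at an unadjusted p below 0.05, and 0 by DESeq2. Leaving out stroked WT mouse 5_2 gave 2 calls, Efna3 (-0.51) and Efna2 (-0.60), and leaving out 5_3 gave 3, the same with Sema6b (-0.39). Both of these stroked WT mice are of cohort TF, as are all delayed mice. The genes called then were all lower in TF in the cohort term below (Efna3 -0.59, Efna2 -0.73, Sema6b -0.44). Delayed treatment and cohort cannot be told apart in these calls.

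Delayed and acute treatment were set directly against each other, and 10 members differed (19.6%, against 20.3% of all genes). Of these, 6 (11.8%) were lower in delayed mice against 9.96% of all genes, and 4 (7.84%) higher against 10.4%. Past a log2 change of 1 was 1 member, Sema3b, against 5.75% of all genes. Efna5 was at 16.4, 21.3, 14.2, 15.4 and 13.8 CPM in delayed mice, against the 3 acute values above (-0.80 ± 0.176, adjusted p = 0.0102), and only acute mouse 2_1 lay inside the delayed range. Plxnb2 was at 107.1, 113.7, 122.6, 120.6 and 139.6 CPM, above all 3 acute mice (0.61 ± 0.151, adjusted p = 0.0119). Sema3b was at 5.63, 5.86, 8.61, 9.42 and 8.73 CPM, against 2.68, 1.83 and 4.33 CPM in acute mice (1.37 ± 0.349, adjusted p = 0.0125), again with no overlap. Choroid plexus marker sums were 239.4 to 262.0 CPM in acute and 249.4 to 1453 CPM in delayed mice, and their part in the Sema3b difference was not tested.

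The other 7 differed by less than 1 on the log2 scale. Sema3a was at 21.6, 27.7, 21.9, 20.9 and 25.1 CPM in delayed and 31.0, 36.0 and 28.0 CPM in acute mice (-0.43). Sema7a was at 152.8, 179.8, 135.0, 138.0 and 108.2 CPM in delayed mice (-0.61), and Sema6b, a ligand of plexin A receptors, at 101.9, 94.1, 87.4, 91.8 and 85.3 CPM against 146.4, 114.3 and 105.9 CPM (-0.41). The lowest acute mouse for Sema3a and Sema6b lay close to the highest delayed one. Ephb2 was at 18.8, 20.2, 19.9, 17.9 and 14.0 CPM against 36.6, 29.9 and 19.9 CPM (-0.66), and Efna3 at 42.6, 40.5, 36.7, 40.2 and 33.7 CPM against 63.1, 47.5 and 42.7 CPM (-0.40). Ephb4 was at 6.76, 8.38, 9.89, 8.65 and 11.8 CPM against 4.72, 5.87 and 6.57 CPM (0.67), and Plxnb3, found mainly on oligodendrocytes, at 40.9, 46.9, 40.7, 42.2 and 38.0 CPM against 21.2, 26.6 and 34.9 CPM (0.60). Ephb4 and Plxnb3 were higher in every delayed mouse than in every acute one.

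Acute mice 5m_1 and 1_5 had low lesion markers, and the calls between delayed and acute mice were lost without either of them. Fibroblast marker sums were 213.0 and 162.0 CPM in mice 5m_1 and 1_5, 578.5 CPM in mouse 2_1, and 579.4 to 2010 CPM in delayed mice. Without 5m_1 alone 0 members were called, with Efna5 at -0.75 (adjusted p = 0.102), Plxnb2 at 0.56 (adjusted p = 0.102) and Efna3 at -0.23 (adjusted p = 0.4). Without 1_5 alone 0 were called, with Efna5 at -0.62 (adjusted p = 0.0955), Plxnb2 at 0.47 (adjusted p = 0.101) and Sema7a at -0.38 (adjusted p = 0.195). Without 2_1, 20 were called, and without delayed mouse 5_5, 6. Within cohort TF alone 0 members were called, with the difference at -0.71 for Efna5, 0.60 for Plxnb2 and 1.33 for Sema3b (adjusted p = 0.159 for each), and with cohort as a covariate 5 were called.

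**Figure D4:**
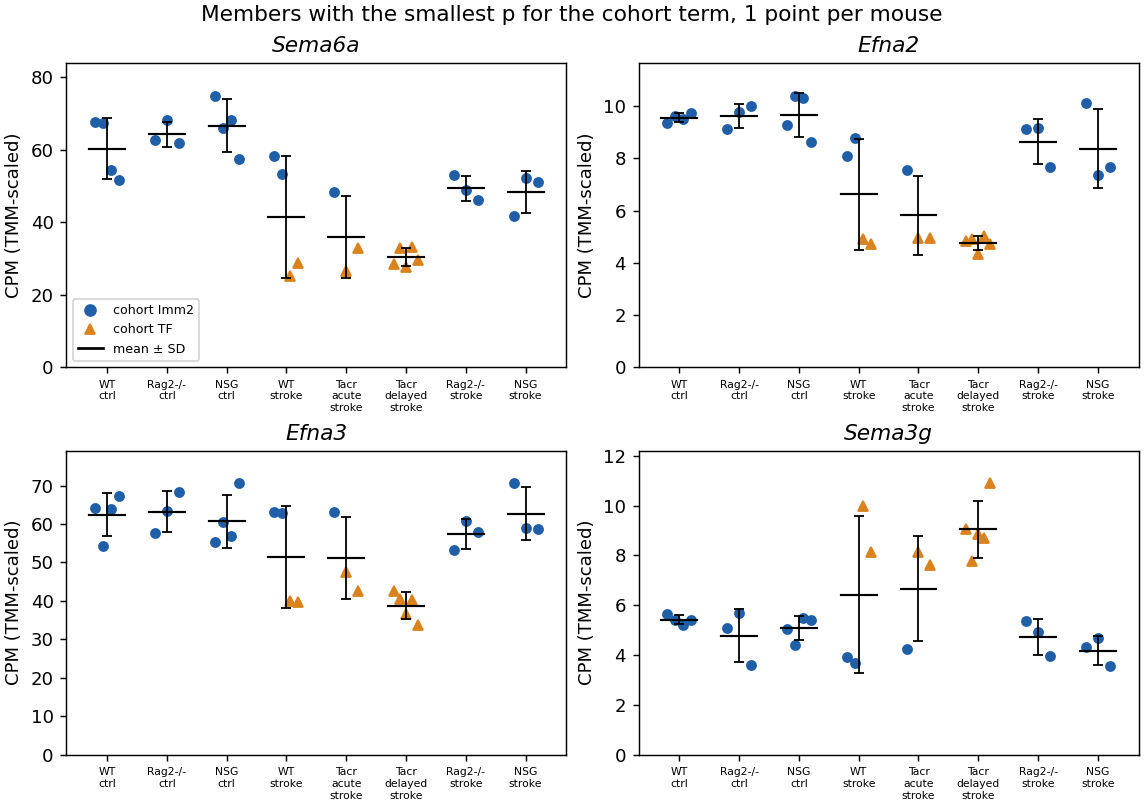
CPM per mouse of the 4 members with the smallest p for the difference between cohorts TF (orange triangles) and Imm2 (blue circles); black lines are the mean and SD of each group and axes start at 0. Within stroked WT mice the TF points are lower than the Imm2 points for Sema6a, Efna2 and Efna3 and higher for Sema3g.

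Several members differed between cohorts. With cohort as a term beside group, 11 of 51 members (21.6%) differed between cohorts, against 27.6% of all genes, with 8 (15.7%) lower in TF against 14.4% and 3 (5.88%) higher against 13.2%. Only stroked WT and WT-Tacr acute mice were found in both cohorts, so the term rests on them. Among these, Ddx3y was at 35.4, 42.6 and 43.2 CPM in the Imm2 mice and at 0 in every TF mouse. Cohort and sex cannot be told apart in this term. Lower in TF were Sema6a (-0.91), Efna2 (-0.73), Efna3 (-0.59), Sema6c (-0.50), Sema6b (-0.44), Efnb1 (-0.39), Ephb1 (-0.34) and Sema4b (-0.27), and higher were Sema3g (1.11), Plxnb3 (0.46) and Sema3c (0.34). Sema6a, a transmembrane ligand of plexin A2 and plexin A4, was at 58.3 and 53.3 CPM in the Imm2 and at 25.1 and 28.7 CPM in the TF stroked WT mice, against 67.6, 67.3, 54.5 and 51.6 CPM in non-stroked WT mice. The Imm2 stroked mice lay within the non-stroked range. Efna2, an EphA ligand, was at 8.10 and 8.78 CPM in Imm2 and 4.91 and 4.70 CPM in TF stroked WT mice, against 9.37, 9.63, 9.52 and 9.73 CPM without stroke. In cohort Imm2 alone the log2 fold change after stroke was -0.11 for Sema6a (adjusted p = 0.672) and -0.17 for Efna2 (adjusted p = 0.433). Sema3g, a class 3 semaphorin of vessels, was at 3.91 and 3.67 CPM in Imm2, 10 and 8.13 CPM in TF stroked WT mice and 5.22 to 5.64 CPM in non-stroked ones. Endothelial marker sums were 132.9 and 135.9 CPM in the Imm2 and 229.9 and 193.8 CPM in the TF stroked WT mice. Striatal marker sums were 909.4 and 596.8 CPM against 1733 and 1601 CPM in the same mice. The part of either in the cohort differences was not tested.

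The co-receptors and effectors through which these families signal were read from lists of 9 and 39 genes. Nrp1 and Nrp2, the neuropilins that bind class 3 semaphorins, did not pass in any stroke comparison. In WT mice Nrp1 was at 30.3 to 38.1 CPM without and 23.9 to 39.2 CPM with stroke (-0.01, adjusted p = 0.979), and Nrp2 at 40.3 to 45.8 and 42.2 to 51.7 CPM (0.15, adjusted p = 0.682). Among the co-receptors 3 rose and 2 fell in WT mice, where 15.2% of all genes rose and 11.6% fell. Cd44 (2.83), which pairs with plexins and Eph receptors and marks reactive glia and leukocytes, Cd72 (2.52), a B cell and myeloid receptor of class 4 semaphorins, and Itgb1 (0.40), an integrin that binds Sema7a, rose, and the adhesion molecules Nrcam (-0.44) and L1cam (-0.37) fell. Of the 39 effectors 4 rose and 10 fell in WT mice, against the same shares of all genes. Fes, a tyrosine kinase of plexin signalling that is abundant in myeloid cells, rose by 1.42, and Gsk3b (-0.45), the guanine exchange factors Kalrn (-0.64) and Itsn1 (-0.39), and others fell. In WT-Tacr delayed mice 5 effectors rose and 18 fell, in NSG mice 3 and 3, in Rag2-/- mice 1 and 2, and in WT-Tacr acute mice 0 and 0. Of all genes 27.6% rose and 27.6% fell in delayed mice, and 13.0% and 8.89% in NSG mice. The shares were 6.71% and 1.53% in Rag2-/- mice, and 6.18% and 2.36% in acute mice.

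In none of the 13 comparisons were 14 members called, namely Sema3c, Sema3f, Sema4f, Sema4g, Sema5b, Plxna3, Efnb1, Efnb3, Epha1, Epha3, Epha5, Epha8, Epha10 and Ephb1. Of these, Sema3c, Efnb1 and Ephb1 differed between cohorts. The other 37 (72.5%) were called in at least 1 of the 5 stroke comparisons, against 63.1% of all genes, and 0 were called in opposite directions in any of them.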

How the data were processed

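Raw counts per gene were deposited by the authors, 1 table per mouse, from stranded poly(A) libraries sequenced, aligned and counted at a core facility. The aligner, the genome build and the strand setting of the counting are not given in the sources used here. Total counts ran from 17789044 to 43403413 per library, and groups held 3 to 5 mice, which limits the precision.

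Of 25746 gene IDs, 25712 matched GENCODE M21 names. Counts were scaled by TMM and tested with edgeR's quasi-likelihood test (edgeR 4.0.16, R 4.3.3) in 1 fit of the 8 groups without covariates, over the 17031 genes that passed filterByExpr. P-values were adjusted over these genes by the Benjamini-Hochberg method for each of 13 comparisons, and a gene was called at an adjusted p below 0.05. Standard errors are the absolute log2 fold change over the square root of the F statistic. DESeq2 1.42.0 was an alternative, and the fit was tested on data simulated with the same spread for every gene. For stroke in WT mice it recovered 93 of 100 genes changed by 1 on the log2 scale. Of 100 genes changed by 0.6 it recovered 48, and 11 unchanged genes were called. A member not called may thus still have changed by such an amount. P-values measure the spread between these libraries. Per-mouse values are given for the 2 members of each family with the smallest p for stroke in WT mice and for non-stroked NSG against WT. They are also given for the members called between delayed and acute mice and for some others. Log2 fold changes are given for every called member. The members and gene lists were chosen with earlier results of these data known. File names of 2 libraries differ from their titles, and the record of the series was followed.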

Additional observations from a re-analysis of the deposited data

Results flagged for a closer look

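In 7 of the 148 sample groups of 4 or 5 mice examined for 37 members, 1 mouse lay far from the others, which chance alone flags in about 1 of 20 groups. In non-stroked WT mice these were Epha7 at 72.2 CPM in mouse 3, and Efna4 at 0.137 CPM and Plxnc1 at 59.8 CPM in mouse 5. Plxnc1 was at 75.5 CPM in non-stroked NSG mouse 3. In stroked WT mice Sema4a was at 47.7 CPM in mouse 2m_3 and Sema4d at 72.5 CPM in mouse 2m_5. Ephb3 was at 26.9 CPM in WT-Tacr delayed mouse 3_4.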

How the results depend on the processing

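With DESeq2 in place of edgeR, all 79 calls of a member in a comparison kept their direction and stayed called. Counts of called members moved by more than 1.5 times as follows. With a minimum log2 change of 1, the counts were 0 for stroke in WT, 1 in WT-Tacr acute, 6 in WT-Tacr delayed, 1 in Rag2-/- and 0 in NSG mice, 0 for non-stroked NSG against WT and against Rag2-/-, and 1 for delayed against acute. With cohort as a covariate they were 8 for stroke in WT, 0 in WT-Tacr acute and 5 in WT-Tacr delayed mice, and 5 for delayed against acute. With Ddx3y as a covariate they were 8, 3 and 17 for the same stroke comparisons, 3 for stroke in NSG mice, and 4 and 5 for non-stroked NSG against WT and Rag2-/-. Sema3g in WT-Tacr delayed mice changed sign under both, to -0.37 and -0.03. In cohort Imm2 alone the counts were 4 for stroke in WT mice and 1 for NSG against Rag2-/-, and in cohort TF alone 0 for delayed against acute. With only the groups compared in the fit they were 2 for stroke in WT-Tacr acute, 0 in NSG mice, 6 and 5 for non-stroked NSG against WT and Rag2-/-, and 0 for delayed against acute. With striatal markers as a covariate they were 1 and 0 for non-stroked NSG against WT and Rag2-/-. The cause of these shifts was not tested, and the share of all genes called in each setting is not given here.

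Leaving out 1 mouse at a time, the counts ranged from 7 to 18 for stroke in WT, 0 to 9 in WT-Tacr acute, 26 to 32 in WT-Tacr delayed, 0 to 8 in Rag2-/- and 2 to 10 in NSG mice. They ranged from 1 to 3 for non-stroked NSG against WT, 0 to 3 against Rag2-/-, 0 to 20 for delayed against acute, 0 to 3 for acute and for delayed against stroked WT, and 0 to 1 for the NSG response relative to WT. Without acute mice 5m_1 and 1_5 together, delayed against acute gave 0. That leaves 1 acute mouse, assumed to vary like the other groups, and the adjusted p of all 10 members was 1.0, so it says nothing of stability. This alternative and the striatal covariate were chosen after seeing the data.

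Same-numbered non-stroked mice had correlations of -0.279, 0.13 and -0.122 for NSG and WT, -0.156, 0.0094 and 0.0812 for NSG and Rag2-/-, and 0.107 and 0.127 for Rag2-/- and WT, which share only 2 numbers. They were not taken as paired. With that number as a block, the counts were 7 for NSG against Rag2-/- (5 in the same mice without the block), 2 for Rag2-/- against WT (0 without) and 3 for NSG against WT (2 without), where Sema3a was at -0.48 (adjusted p = 0.14) with and -0.47 (adjusted p = 0.0836) without the block in the same mice.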
